A study of Mus musculus and Homo sapiens with 8 samples.

Results

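The genes described here encode the subunits of the mitochondrial respiratory chain and of ATP synthase, read in osteoclasts and in the macrophages they form from. They were taken from the mouse count table by name: symbols of complexes I, III, IV and V (Nduf, Uqcr, Cox4 to Cox8, Atp5 and their mitochondrially encoded partners) with a mean of at least 10 counts over the 6 libraries. This gave 87 genes out of 25668 in the table, 75 encoded in the nucleus and 12 in mitochondrial DNA. A further 12 matching symbols fell under the minimum. The nearest gene inside it was mt-Nd4l, with a mean of 15.8 counts, and the nearest outside was mt-Atp8, with 7.33 counts. Complex I was represented by 36 nuclear and 7 mitochondrial genes, complex III by 8 and 1, complex IV by 14 and 3, and complex V by 17 and 1. Ndufa4, first assigned to complex I, was counted in complex IV.

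Total RNA was sequenced from 3 osteoclast and 3 macrophage libraries, part of a series on glutamine from the bone stroma and resistance of tumours to PARP inhibitors. All 6 came from tibial bone marrow of wild-type C57BL/6 mice aged 6 weeks. Osteoclasts, the multinucleated cells that resorb bone, were first kept for 2 days in M-CSF alone and then received RANKL at 100 ng/ml, with M-CSF at 50 ng/ml. Macrophages received M-CSF at 50 ng/ml and no RANKL. The labels call both untreated and do not state how long the macrophages were kept, so RANKL and time or medium in culture cannot be told apart. Nor do they tell whether the replicates were separate mice or wells. Each p-value therefore reflects the spread among 6 libraries, and that spread may be technical.

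The respiratory chain sits in the inner mitochondrial membrane. Complex I takes electrons from NADH, complex III passes them from ubiquinol to cytochrome c, and complex IV passes them to oxygen; the proton gradient they build drives ATP synthase, also called complex V. Complexes I, III, IV and V are assembled from subunits of both genomes, and osteoclasts are known as cells rich in mitochondria.

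Libraries held 16743849 to 22587509 counts. All 10 osteoclast markers tested were higher in osteoclasts, where they summed to 11757 to 12313 CPM (counts brought to one library size with TMM scaling), against 56.4 to 60.6 CPM in macrophages. Of the 8 macrophage markers, 4 rose and 4 fell in osteoclasts, and their sum was 42200 to 45295 CPM, against 21456 to 22405 CPM in macrophages. Stromal or osteoblast markers reached 229 CPM in macrophage replicate 1 and 8.88 to 30.9 CPM in the other libraries, and Lum, Bglap and Sp7 were at 0 in macrophages. Neutrophil markers summed to 16.2 to 18.4 CPM in osteoclasts and 0 to 0.276 CPM in macrophages, and lymphoid markers to 1.31 to 1.603 CPM in osteoclasts and 9.83 to 12.98 CPM in macrophages. The part of these other cells in the results was not tested. Osteoclast replicate 2 stood apart from its group. The nuclear RNA Malat1 reached 4152 CPM there, against 1422 and 1463 CPM in the other osteoclast libraries and 1104 to 1270 CPM in macrophages.

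Most of the chain was higher in osteoclasts. Of the 87 genes, 79 rose and 1 fell, in edgeR's quasi-likelihood test at a Benjamini-Hochberg adjusted p below 0.05. The gene that fell, Cox6b2, reached the minimum mean only through its macrophage counts. Across the 13247 genes tested, 32.3% were called higher and 31.4% lower. The median log2 difference (osteoclast minus macrophage) was 0.54 over the 87 genes, with an interquartile range of 0.42 to 0.64, and -0.004 over all genes tested. With a trend of the differences on gene length removed, 60 of 86 were called higher and 3 lower, and the median was 0.31. Without osteoclast replicate 2 the count was 79 higher and 1 lower with a median of 0.56. In 81 of the 87 genes, 93.1%, the osteoclast and macrophage libraries did not overlap, against 68.1% of all genes tested.

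The size of the shift depends on scaling. When libraries were scaled by their totals alone, the median of all genes moved by -0.22, with 19.8% called higher and 48.7% lower. On that scale 68 of the 87 were called higher and 2 lower, and the median was 0.32. With the deposited values used without any scaling, 31 rose and 1 fell, with a median of 0.35. The gap between the chain and the median of all genes, which library scaling by itself cannot move, was 0.54. It was 0.46 in DESeq2, where all 25668 genes entered without a filter on low counts, and 0.33 with the length trend removed. Of the 79 genes called higher, Ndufa7, Ndufb10, Ndufb7 and Ndufv2 had values below 0 when scaled by totals, and the other 75 stayed above 0. Ndufa7 was also below 0 with no library scaling, as were Ndufa7, Ndufa8 and Ndufb10 with the length trend removed. In bulk RNA, fewer cells of a type and less RNA per cell cannot be told apart.

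**Figure D1:**
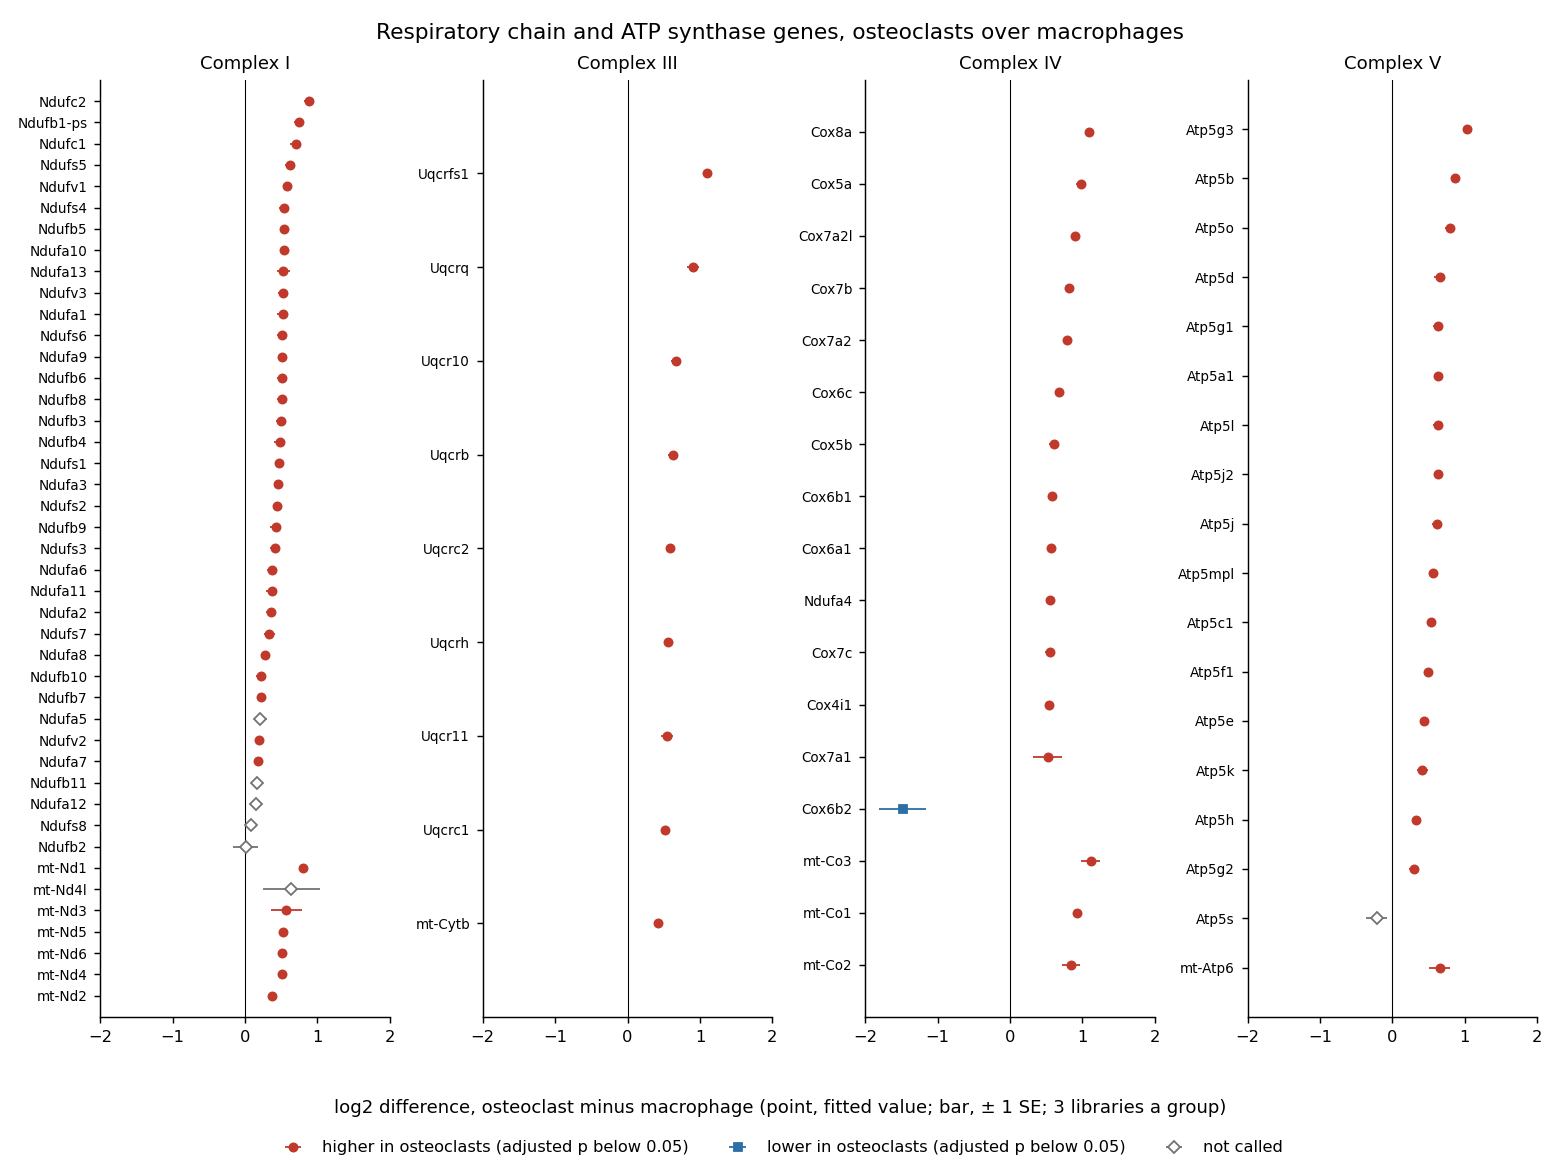
Log2 difference between osteoclasts and macrophages (x axis) for each of the 87 genes (y axis), in a panel for each complex with the mitochondrially encoded genes at the bottom; points are fitted values and bars are 1 SE. All but 2 points lie above 0, and those of complexes III, IV and V mostly lie further to the right than those of complex I; scaled by library totals, 4 of the called complex I genes fall below 0, and with the length trend removed 3 do.

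Complex I changed least. Of its 36 nuclear genes, 31 rose and none fell, with a median of 0.46, against medians of 0.60 for the 8 genes of complex III, 0.59 for the 14 of complex IV and 0.62 for the 17 of complex V. No test was made between complexes. The same order of complex I below the others was present when libraries were scaled by totals (0.24, against 0.39, 0.37 and 0.40). Ratios taken inside a library do not depend on scaling. Complex I counts per complex V count were 0.544, 0.543 and 0.544 in osteoclasts and 0.651, 0.645 and 0.643 in macrophages. Atp5b and Atp5a1 weigh heavily in the complex V sum. They averaged 984 and 770 CPM of 3299 CPM in osteoclasts, and 539 and 498 CPM of 2069 CPM in macrophages. Complex IV counts per complex I count were 0.922, 0.903 and 0.925 in osteoclasts and 0.754, 0.755 and 0.754 in macrophages. Both ratios were set apart by far more than the spread inside either group, and complex III per complex I separated the same way (0.455 to 0.462 in osteoclasts and 0.383 to 0.390 in macrophages).

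**Figure D2:**
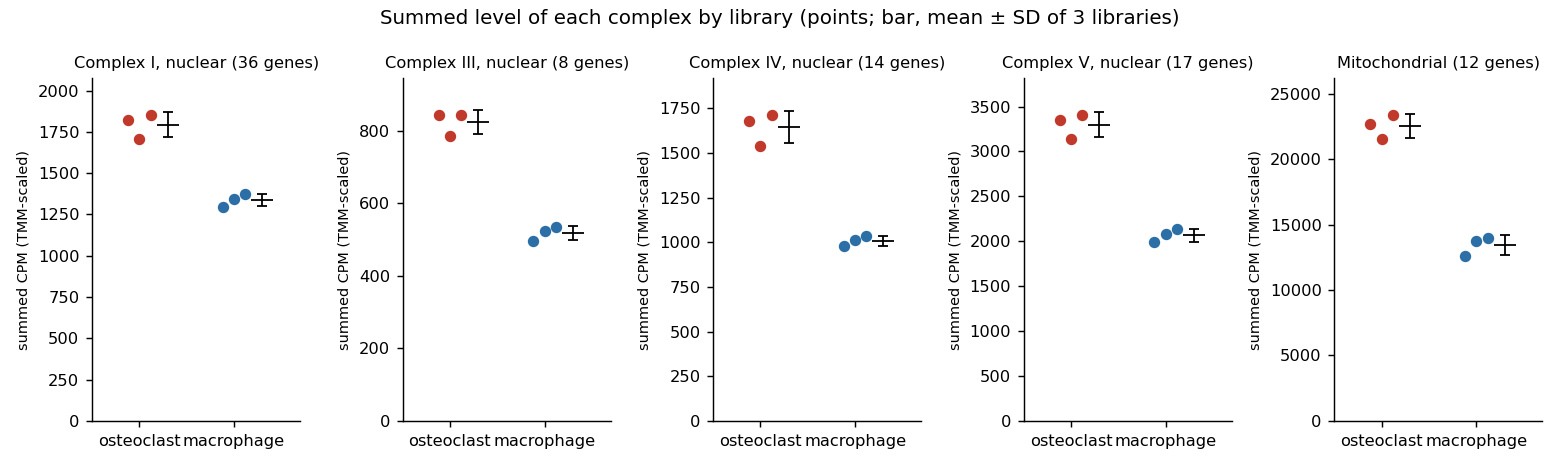
Summed CPM (y axis, from 0) of the nuclear genes of each complex and of the mitochondrially encoded genes, by library; points are libraries and bars are the mean ± SD of 3. Osteoclast sums exceed macrophage sums in every panel, from 1706 to 1851 against 1297 to 1372 CPM for complex I to 3142 to 3405 against 1991 to 2135 CPM for complex V.

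Within complex I, the arm that reaches into the matrix and handles NADH had a median of 0.39 over 16 genes, of which 13 rose. The membrane arm had a median of 0.50 over 20 nuclear genes, of which 18 rose. Ndufc2, an accessory membrane subunit, led with 54.9, 55.7 and 61.5 CPM in osteoclasts and 29.5, 31.7 and 32.0 CPM in macrophages. All osteoclast libraries lay above all macrophage libraries, and the log2 difference was 0.88 (SE 0.07, adjusted p = 6.24e-08). It was followed by Ndufb1-ps (0.74, SE 0.07) and Ndufc1, another accessory membrane subunit (0.70, SE 0.07). GENCODE lists Ndufb1-ps as a long non-coding RNA from a shared promoter and not as protein-coding, with 12.75% of its exon length overlapping Cpsf2 on the other strand, so its value is uncertain. In the matrix arm, Ndufv1, the flavoprotein that accepts electrons from NADH, rose by 0.59 (SE 0.06), while its partner Ndufv2, an iron-sulfur subunit, rose by 0.20 (SE 0.05). Ndufv1 counts per Ndufv2 count were 1.11, 0.982 and 1.05 in osteoclasts and 0.810, 0.783 and 0.813 in macrophages, and the groups did not overlap.

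Complex I also held 5 of the 6 nuclear genes that were not called. Ndufs8, a core subunit that carries iron-sulfur clusters, had 39.9, 36.1 and 38.3 CPM in osteoclasts and 35.2, 36.7 and 36.4 CPM in macrophages. These ranges overlapped, and the log2 difference was 0.08 (SE 0.06, adjusted p = 0.284). The accessory subunits Ndufb2 (0.01), Ndufa12 (0.15), Ndufb11 (0.16) and Ndufa5 (0.21) were also not called and their groups overlapped. All 5 took a value below 0 when libraries were scaled by totals. Ndufb11 shares 12.9% of its exon length with Rbm10 on the other strand, and 36.2% of the Ndufa12 transcript has a copy at 98% identity or more elsewhere in the transcriptome, so these values are uncertain.

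In complex III all 8 nuclear genes rose. Uqcrfs1, the Rieske iron-sulfur protein that takes electrons from ubiquinol, had 122, 121 and 124 CPM in osteoclasts and 55.6, 56.0 and 59.4 CPM in macrophages. No other nuclear gene of the chain rose more: the log2 difference was 1.10 (SE 0.04, adjusted p = 7.79e-11). The core proteins Uqcrc1 and Uqcrc2 rose by 0.52 (SE 0.04) and 0.58 (SE 0.04). Uqcrfs1 counts per Uqcrc1 count were therefore 0.595, 0.624 and 0.615 in osteoclasts and 0.410, 0.396 and 0.421 in macrophages. The small subunits Uqcrq (0.90, SE 0.08) and Uqcr10 (0.67, SE 0.06) followed, and Uqcrb, Uqcrh and Uqcr11 lay between 0.54 and 0.62. Uqcrc2 shares 19.75% of its exon length with Pdzd9 on the other strand, and near-identical copies cover 62.8% of the Uqcrb and 38.4% of the Uqcr11 transcript, so these 3 values are uncertain. Cyc1, the heme-carrying subunit cytochrome c1, which the name rule leaves out, rose by 1.03 (SE 0.06).

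In complex IV, 13 of 14 nuclear genes rose and 1 fell. Cox8a, its smallest subunit in most tissues, had 178, 150 and 177 CPM in osteoclasts and 75.9, 79.3 and 80.5 CPM in macrophages. The lowest osteoclast value was that of replicate 2 and still lay well above every macrophage library (log2 difference 1.10, SE 0.06, adjusted p = 2.52e-09). Cox5a, a matrix-facing subunit, rose by 0.98 (SE 0.06), with 87.4, 76.7 and 84.6 CPM in osteoclasts and 39.0, 43.1 and 44.2 CPM in macrophages. Cox5a shares 12.8% of its exon length with an antisense gene, Gm26631, and whether reads were counted by strand is not stated in the labels. Cox7a2l is known for joining complexes III and IV into supercomplexes, a role that the shortened form carried by C57BL/6 mice is known to lack. It had 234, 226 and 244 CPM in osteoclasts and 123.3, 126.0 and 129.6 CPM in macrophages (0.89, SE 0.04, adjusted p = 1.56e-10). Its relative Cox7a2, the widely expressed subunit it resembles, rose by 0.79 (SE 0.06).

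Tissue-restricted isoforms of complex IV were scarce in both cell types. Cox6b2, known as the testis form of Cox6b, was the 1 gene that fell, with 7, 11 and 11 counts in osteoclasts and 32, 26 and 34 counts in macrophages. It reached the minimum mean of 10 only through its macrophage counts, so its fall is a description and carries no weight as a result. The groups did not overlap (log2 difference -1.48, SE 0.33, adjusted p = 0.00138), but these counts are few beside Cox6b1, the widespread form, which had 2669 to 3546 counts in osteoclasts and 1944 to 2572 in macrophages and rose by 0.58 (SE 0.04). Cox7a1, the heart and muscle form, had 47, 54 and 53 counts in osteoclasts and 32, 43 and 48 counts in macrophages and rose by 0.52 (SE 0.20, adjusted p = 0.0401), a call that was lost when any library other than macrophage replicate 3 was left out. Cox6a2, the heart and muscle partner of Cox6a1, stayed under the minimum with 11, 4 and 11 counts in osteoclasts and 4, 4 and 7 in macrophages. Cox4i2, the isoform linked to low oxygen, was also under the minimum, with 3, 2 and 4 counts in osteoclasts and 6, 10 and 16 in macrophages. Ndufa4l2, a relative of Ndufa4, had 0 counts in every osteoclast library and 13, 2 and 2 in macrophages, where the 13 came from replicate 1, the library with the most stromal marker RNA. Among the widespread forms, Cox4i1 rose by 0.54 (SE 0.04), Cox6a1 by 0.56 (SE 0.05) and Ndufa4 by 0.55 (SE 0.05).

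In complex V, 16 of 17 nuclear genes rose and none fell. The 5 genes of F1, the catalytic head, all rose, with a median of 0.63. Atp5b, the catalytic beta subunit, had 996, 942 and 1013 CPM in osteoclasts and 518, 539 and 559 CPM in macrophages. Its log2 difference of 0.87 (SE 0.05) was larger than that of its partner Atp5a1, the alpha subunit (0.63, SE 0.05), and Atp5b counts per Atp5a1 count were 1.28, 1.27 and 1.29 in osteoclasts and 1.06, 1.08 and 1.10 in macrophages. The 4 stalk genes had a median of 0.56, led by Atp5o, the subunit that ties the head to the stalk (0.79, SE 0.07). Atp5s, coupling factor B, was not called: it had 3.99, 3.92 and 4.60 CPM in osteoclasts and 5.20, 4.72 and 4.70 CPM in macrophages (log2 difference -0.22, SE 0.14, adjusted p = 0.2). Scaled by library totals it was called lower.

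The rotating ring of Fo is built from subunit c, a single mature protein that 3 genes encode. Atp5g3 had 223, 210 and 229 CPM in osteoclasts and 106, 111 and 108 CPM in macrophages, a log2 difference of 1.03 (SE 0.04, adjusted p = 7.64e-11). Atp5g1 rose by 0.63 (SE 0.07) and Atp5g2 by 0.30 (SE 0.08), the last not called when libraries were scaled by totals (0.08). The c-ring transcripts were shared out differently, although 88.2% of the Atp5g2 transcript has a copy at 98% identity or more, the longest in Gm10175, so its change and these shares are uncertain. Atp5g3 made up 54.7%, 55.8% and 54.5% of their counts in osteoclasts and 47.1%, 45.4% and 42.6% in macrophages, and Atp5g2 made up 22.8%, 23.6% and 24.8% in osteoclasts and 30.6%, 32.0% and 33.7% in macrophages. The Atp5g1 share overlapped between the groups, at 20.7% to 22.4% in osteoclasts and 22.3% to 23.8% in macrophages. With 3 against 3 libraries, an exact two-sided permutation test on such a share or ratio cannot go below p = 0.1, the value that the Atp5g3 and Atp5g2 shares each gave. The ratios between other gene pairs were picked after their values were seen and are descriptions, with no test.

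**Figure D3:**
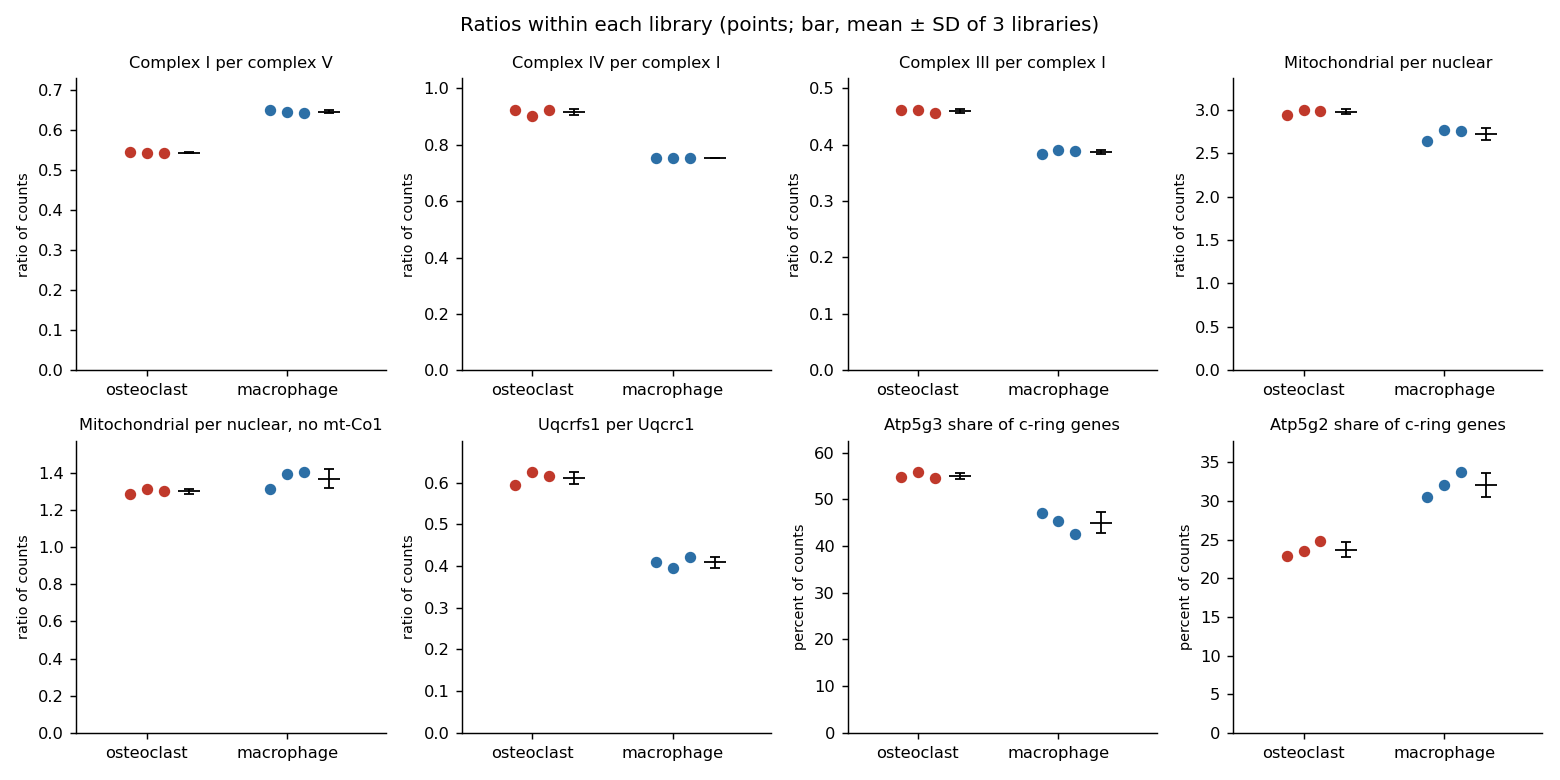
Ratios of counts and c-ring shares (y axes, from 0) inside each library; points are libraries and bars are the mean ± SD of 3. Osteoclasts lie apart from macrophages in every panel except the mitochondrial to nuclear ratio without mt-Co1, where osteoclasts span 1.29 to 1.31 and macrophages 1.31 to 1.40.

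Mitochondrial DNA encodes the core membrane subunits of complex I, cytochrome b of complex III, the catalytic core of complex IV and part of Fo, and it is read as long transcripts that are cut into single messages. Of its 12 genes here 11 rose, with a median of 0.61, against 68 of 75 nuclear genes with a median of 0.53. The 12 genes took 2.11%, 2.00% and 2.16% of all counts in osteoclasts and 1.36%, 1.48% and 1.50% in macrophages. The 75 nuclear genes took 0.715%, 0.666% and 0.723% in osteoclasts and 0.515%, 0.535% and 0.545% in macrophages. Mitochondrially encoded counts per nuclear count were 2.94, 3.00 and 2.99 in osteoclasts and 2.65, 2.77 and 2.76 in macrophages, so the groups did not overlap.

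The difference in that ratio between osteoclasts and macrophages rested on 1 gene. mt-Co1, the catalytic subunit of complex IV, had 12778, 12130 and 13209 CPM in osteoclasts and 6370, 6813 and 6886 CPM in macrophages (log2 difference 0.93, SE 0.04, adjusted p = 3.95e-10). It made up 56.3%, 56.2% and 56.5% of mitochondrially encoded counts in osteoclasts and 50.5%, 49.6% and 49.1% in macrophages. Without mt-Co1, mitochondrially encoded counts per nuclear count were 1.29, 1.31 and 1.30 in osteoclasts and 1.31, 1.40 and 1.40 in macrophages, lower on average and with overlapping groups.

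Messages cut from the same strand did not change equally. mt-Nd1, a core subunit of complex I, had 2477, 2306 and 2582 CPM in osteoclasts and 1335, 1434 and 1474 CPM in macrophages (log2 difference 0.80, SE 0.05). Its neighbour mt-Nd2, also of complex I, had 1208, 1151 and 1226 CPM in osteoclasts and 841, 936 and 987 CPM in macrophages, a smaller log2 difference of 0.38 (SE 0.06). mt-Nd1 counts per mt-Nd2 count were 2.05, 2.00 and 2.10 in osteoclasts and 1.59, 1.53 and 1.49 in macrophages. mt-Cytb, the cytochrome b of complex III, rose by 0.42 (SE 0.05), and mt-Co1 counts per mt-Cytb count were 5.11, 5.02 and 5.17 in osteoclasts and 3.73, 3.58 and 3.53 in macrophages. mt-Nd4 (0.51, SE 0.06), mt-Nd5 (0.52, SE 0.05) and mt-Nd6 (0.52, SE 0.06) moved by nearly the same amount, although mt-Nd6 is read from the opposite strand. mt-Nd5 counts per mt-Nd6 count overlapped between the groups, at 3.71 to 3.95 in osteoclasts and 3.71 to 3.82 in macrophages. Whether reads were counted by strand is not stated in the labels, and mt-Nd6 shares 2.7% of its exon length with mt-Nd5. The mt-Nd6 value and its likeness to mt-Nd5 are therefore uncertain. Outside the chain, the mitochondrial ribosomal RNAs mt-Rnr1 and mt-Rnr2 summed to 1497, 1632 and 1541 CPM in osteoclasts and 467, 544 and 524 CPM in macrophages. The log2 ratio of means was 1.61, larger than the difference of any of the 12 genes. The 12 genes themselves summed to a mean of 22523 CPM in osteoclasts and 13442 CPM in macrophages, far above these RNAs. The part of library preparation in the ribosomal RNA values was not tested, so their ratio is uncertain.

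The other 5 mitochondrially encoded genes were measured at very low levels. Per kilobase of transcript, mt-Co1, mt-Nd1, mt-Nd2, mt-Nd4, mt-Nd5, mt-Nd6 and mt-Cytb averaged 741 to 8215 CPM in osteoclasts and 519 to 4325 CPM in macrophages. mt-Co2, mt-Co3, mt-Atp6, mt-Nd3 and mt-Nd4l averaged 3.44 to 13.1 CPM per kilobase in osteoclasts and 2.21 to 7.31 in macrophages. These 5 genes have 99.0% to 99.9% of their length at 98% identity or more in a row of pseudogenes on chromosome 1, a stretch of mitochondrial sequence inside the nuclear genome. The 7 well-measured genes have none there, except mt-Nd4 (63.6% of its length) and mt-Co1 (31.3%). mt-Atp8, which was under the minimum, was also low, averaging 2.1 CPM per kilobase in osteoclasts and 1.5 in macrophages. It has only 21.1% of its length at that identity, so not every low gene had a near-complete copy. Copies were searched among annotated transcripts only. How reads with several matches were counted is not stated in the labels. The pseudogenes held 735, 693 and 941 counts in osteoclasts and 363, 514 and 715 counts in macrophages. The log2 differences of mt-Co3 (1.11, SE 0.13), mt-Co2 (0.84, SE 0.12), mt-Atp6 (0.65, SE 0.15), mt-Nd3 (0.57, SE 0.21) and mt-Nd4l (0.64, SE 0.40, adjusted p = 0.177) are therefore uncertain, and the mt-Nd3 call was lost without osteoclast replicate 1 or 2 or macrophage replicate 2 or 3. The 7 others all rose, with a median of 0.52, against 0.53 for the nuclear genes. Without the 5, mitochondrially encoded counts per nuclear count were 2.94 to 3.00 in osteoclasts and 2.64 to 2.76 in macrophages.

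The first bases of mt-Nd3 and of its copy Gm28438 are shown because they hold the only mismatch, T3C, in 345 aligned bases, counted from 1 at the 5′ end of mt-Nd3; the capital marks it. The build is GRCm38 (mm10), and the stretches lie at chrM:9459-9499 on the plus strand and chr1:24613079-24613119 on the minus strand. A read from elsewhere in the aligned length is the same letter for letter in both.
mt-Nd3: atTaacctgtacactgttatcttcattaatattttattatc
Gm28438: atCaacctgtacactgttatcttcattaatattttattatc

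**Figure D4:**
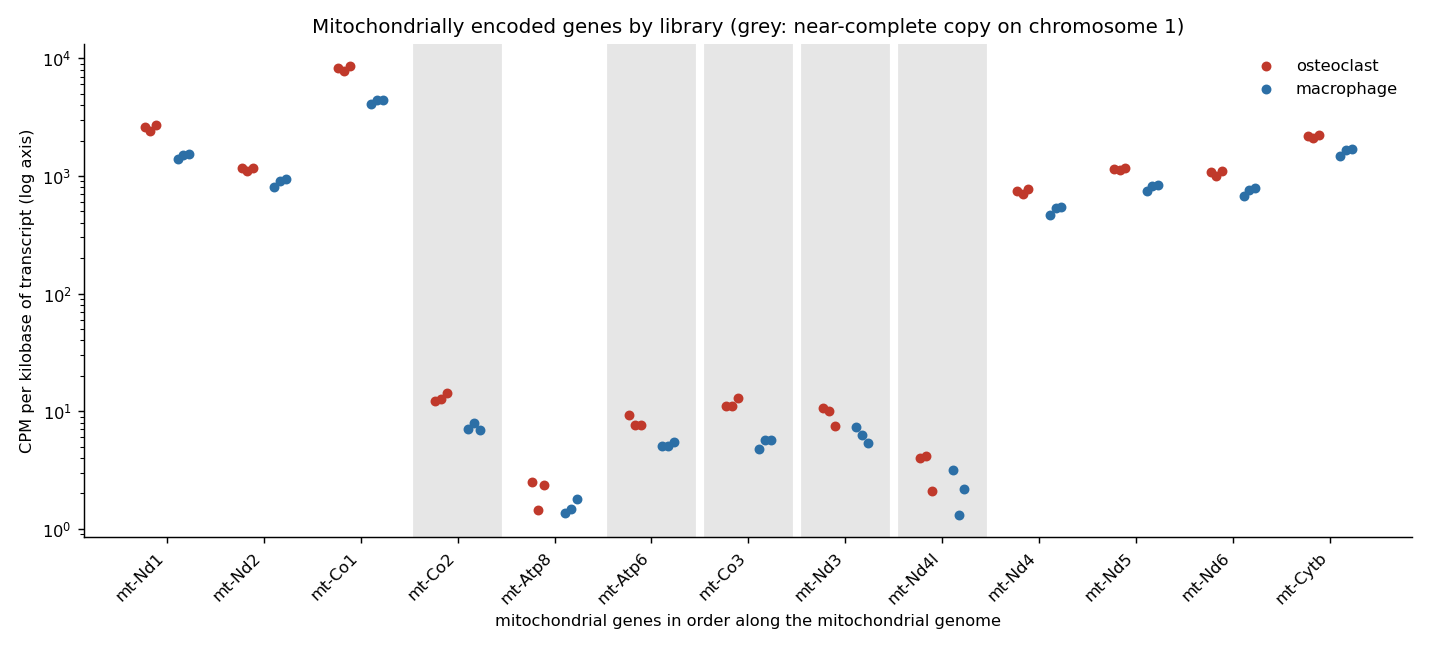
CPM per kilobase of transcript (log y axis) of the 13 mitochondrial protein genes, in their order along the mitochondrial genome (x axis), for each library. The shaded genes with a near-complete copy on chromosome 1 lie below 15, as does mt-Atp8, which has 21.1% of its length in such a copy. The 7 others lie above 400. Osteoclast points lie above macrophage points for all genes but mt-Nd4l and mt-Atp8, where they overlap.

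Promoters were read for 61 of the 75 nuclear genes (RefSeq, GRCm38.p6, 250 bases before to 50 after the first listed start), on both strands, for motifs of factors known to act on respiratory genes. GCGCANGCG, the core of the NRF1 site, was in 17 promoters (27.9%), against 8.83% of 17492 protein-coding promoters of that length. CCGGAAG, bound by ETS factors such as GABP, was in 13 (21.3%, against 11.9%). AAGGTCA, the half-site of the estrogen-related receptors, was in 7 (11.5%, against 4.08%). AAGATGG, the core of the YY1 site, was in 9 (14.8%, against 6.37%), and in all 9 it started within 50 bases of the gene start. GGGCGG, read by Sp1, was in 23 (37.7%, against 46.3%). By these medians the motifs did not sort the genes by size of change: the median log2 difference was 0.48 with and 0.54 without the NRF1 core, and 0.48 with and 0.53 without the ERR half-site.

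The promoters of Cox8a, Atp5g3, Ndufc1 and Uqcrfs1 are shown because these genes were among the largest rises of their complexes and hold different motifs. They lie at chr19:7217567-7217866, chr2:73911277-73911576, chr3:51408906-51409205 and chr13:30545267-30545566, all on the minus strand, written 5′ to 3′ along the gene. Capitals mark the ETS motif at both places in Cox8a, the ERR half-site and then the NRF1 core in Atp5g3, all on the opposite strand, and the YY1 core in Ndufc1. Uqcrfs1 holds none of the motifs searched in this window, and Cox8a and Atp5g3 differ in every motif although their rises were alike.
Cox8a: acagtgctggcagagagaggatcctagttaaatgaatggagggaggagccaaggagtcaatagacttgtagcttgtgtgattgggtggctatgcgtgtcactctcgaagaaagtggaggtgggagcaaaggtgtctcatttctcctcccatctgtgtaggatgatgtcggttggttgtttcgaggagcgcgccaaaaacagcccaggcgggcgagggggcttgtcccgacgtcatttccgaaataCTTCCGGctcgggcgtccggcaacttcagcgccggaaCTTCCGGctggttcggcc
Atp5g3: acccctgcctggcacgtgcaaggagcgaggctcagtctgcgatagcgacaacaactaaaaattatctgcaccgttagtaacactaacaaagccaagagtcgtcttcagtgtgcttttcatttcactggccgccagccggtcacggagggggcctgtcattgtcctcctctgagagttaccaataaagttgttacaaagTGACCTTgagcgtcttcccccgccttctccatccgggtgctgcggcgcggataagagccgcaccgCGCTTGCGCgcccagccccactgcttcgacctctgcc
Ndufc1: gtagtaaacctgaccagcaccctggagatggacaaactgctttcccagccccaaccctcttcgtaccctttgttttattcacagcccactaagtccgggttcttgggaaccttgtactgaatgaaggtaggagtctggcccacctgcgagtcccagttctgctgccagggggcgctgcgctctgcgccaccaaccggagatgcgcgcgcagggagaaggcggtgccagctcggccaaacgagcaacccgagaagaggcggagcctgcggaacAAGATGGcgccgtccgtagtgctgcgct
Uqcrfs1: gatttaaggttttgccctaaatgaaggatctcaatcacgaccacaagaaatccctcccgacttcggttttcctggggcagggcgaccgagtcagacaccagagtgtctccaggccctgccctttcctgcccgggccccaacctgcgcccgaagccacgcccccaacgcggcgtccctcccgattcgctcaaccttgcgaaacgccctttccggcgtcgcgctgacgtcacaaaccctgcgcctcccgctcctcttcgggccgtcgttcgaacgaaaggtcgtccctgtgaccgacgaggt

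Complex II, cytochrome c and import genes had medians near that of the chain, while assembly and maintenance genes had lower ones. All 4 genes of complex II, the succinate dehydrogenase, rose, with a median of 0.54, led by Sdhd, a membrane anchor (0.87, SE 0.04). Sdha, the flavoprotein, rose by 0.57 (SE 0.04). Of 7 further genes outside the name rule, 6 rose (85.7%, against 32.3% of all genes), with a median of 0.55. They include cytochrome c itself, Cycs, with 85.8, 84.1 and 95.3 CPM in osteoclasts and 46.3, 49.1 and 45.6 CPM in macrophages. The lowest of the 7 were the electron transfer flavoprotein genes Etfa (0.43) and Etfb (0.03, not called) and their dehydrogenase Etfdh (0.20). These are not subunits of the complexes. The outer membrane and import list had a median of 0.55, and 15 of its 16 genes rose, among them the chaperonin Hspd1 (0.88, SE 0.04) and the channel Vdac1 (0.82, SE 0.04). The 15 were 93.8% of the list, against 32.3% of all genes. Scaled by totals, 13 of these 16 rose (81.2%, against 19.8%) and 1 fell (6.25%, against 48.7%).

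Assembly factors had lower medians than the subunits they build, with no correction for gene length on either side. Of 16 complex I assembly genes, 7 rose (43.8%, against 32.3% of all genes) and none fell (against 31.4%), with a median of 0.21. Scaled by totals, 2 rose (12.5%, against 19.8% of all genes) and 5 fell (31.2%, against 48.7%). Ndufaf4 rose most among them (0.86, SE 0.08), followed by Ndufaf5 (0.52, SE 0.12). Of 21 complex IV assembly genes tested, 15 rose (71.4%, against 32.3%) and none fell (against 31.4%), with a median of 0.33. Scaled by totals, 7 rose (33.3%, against 19.8%) and 1 fell (4.76%, against 48.7%). Higd1a, a small inner membrane protein, had 43.3, 42.6 and 48.1 CPM in osteoclasts and 19.9, 20.3 and 20.9 CPM in macrophages (1.13, SE 0.07), and Coa5 rose by 0.81 (SE 0.04). Of 6 complex III assembly genes 3 rose (50.0%, against 32.3% of all genes) and 1 fell (16.7%, against 31.4%). Scaled by totals, 1 rose (16.7%, against 19.8%) and 1 fell (16.7%, against 48.7%). Uqcc1 (0.58, SE 0.07) and Ttc19 (0.24, SE 0.10) were among those that rose. The Ttc19 call was lost without osteoclast replicate 1 or 2 or macrophage replicate 1 or 3. Bcs1l, which inserts the Rieske protein, was the gene that fell (-0.42, SE 0.12, adjusted p = 0.00924). Bcs1l had 10.9, 7.55 and 9.77 CPM in osteoclasts and 11.7, 13.6 and 12.6 CPM in macrophages, so it and Uqcrfs1 moved in opposite directions; the Bcs1l groups did not overlap. Of 5 complex V assembly and inhibitor genes 2 rose, Tmem70 (0.52, SE 0.06) and Atpaf2 (0.28, SE 0.06), and none fell, whereas 1 rose and 2 fell when scaled by totals.

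Coenzyme Q, which carries electrons from complexes I and II to III, is made by the Coq genes; 6 of 13 rose (46.2%, against 32.3% of all genes) and 2 fell (15.4%, against 31.4%), with a median of 0.17. Scaled by totals the median was -0.05, and 5 rose (38.5%, against 19.8%) and 3 fell (23.1%, against 48.7%). Coq8a, an atypical kinase of this pathway, had 40.1, 34.7 and 35.2 CPM in osteoclasts and 4.09, 4.90 and 5.39 CPM in macrophages. This was a log2 difference of 2.92 (SE 0.10, adjusted p = 1.8e-11), while its paralog Coq8b fell by 0.29 (SE 0.09), a call lost without macrophage replicate 2. Coq7, a hydroxylase of the pathway, rose by 1.15 (SE 0.08), and Coq2, which joins the ring to its tail, fell by 0.39 (SE 0.07).

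Regulators of mitochondrial gene expression did not move as a group. Of 9 tested, 4 rose (44.4%, against 32.3% of all genes) and 2 fell (22.2%, against 31.4%). The median was 0.09, or -0.12 when scaled by totals, where 4 rose (44.4%, against 19.8%) and 5 fell (55.6%, against 48.7%). Nrf1 (0.02, SE 0.06), Yy1 (0.09, SE 0.05) and Pprc1 (-0.05, SE 0.05) were not called, and their groups overlapped. Ppargc1b, the coactivator PGC-1β, had 14.7, 20.6 and 13.99 CPM in osteoclasts and 2.16, 2.17 and 2.26 CPM in macrophages. All osteoclast libraries were far above the macrophages, and the log2 difference was 2.90 (SE 0.16, adjusted p = 4.21e-09). Perm1, a muscle-enriched regulator, rose by 1.18 (SE 0.07), Myc by 1.11 (SE 0.09) and Esrra, an estrogen-related receptor, by 0.70 (SE 0.06). Gabpa and Gabpb1, the parts of the ETS factor GABP, fell by 0.25 (SE 0.06) and 0.28 (SE 0.08). A list of 23 genes holds those that copy, maintain or transcribe mitochondrial DNA and those that process or stabilise its transcripts. Of these, 6 rose (26.1%) and 4 fell (17.4%), both under the shares over all genes, with a median of 0.06. Scaled by totals the median was -0.16, and 2 rose (8.70%, against 19.8%) and 11 fell (47.8%, against 48.7%). Both parts of the mitochondrial DNA polymerase fell: Polg by 0.47 (SE 0.06), with 54.2, 51.2 and 47.1 CPM in osteoclasts and 68.9, 72.8 and 69.6 CPM in macrophages, and Polg2 by 0.58 (SE 0.13). Slirp, which stabilises mitochondrial messages, rose by 0.79 (SE 0.28), on 86 counts in osteoclasts and 57 in macrophages, and lost its call without osteoclast replicate 1 or 2 or macrophage replicate 1 or 2. Fastkd1, of a family that processes them, rose by 0.59 (SE 0.09).

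**Figure D5:**
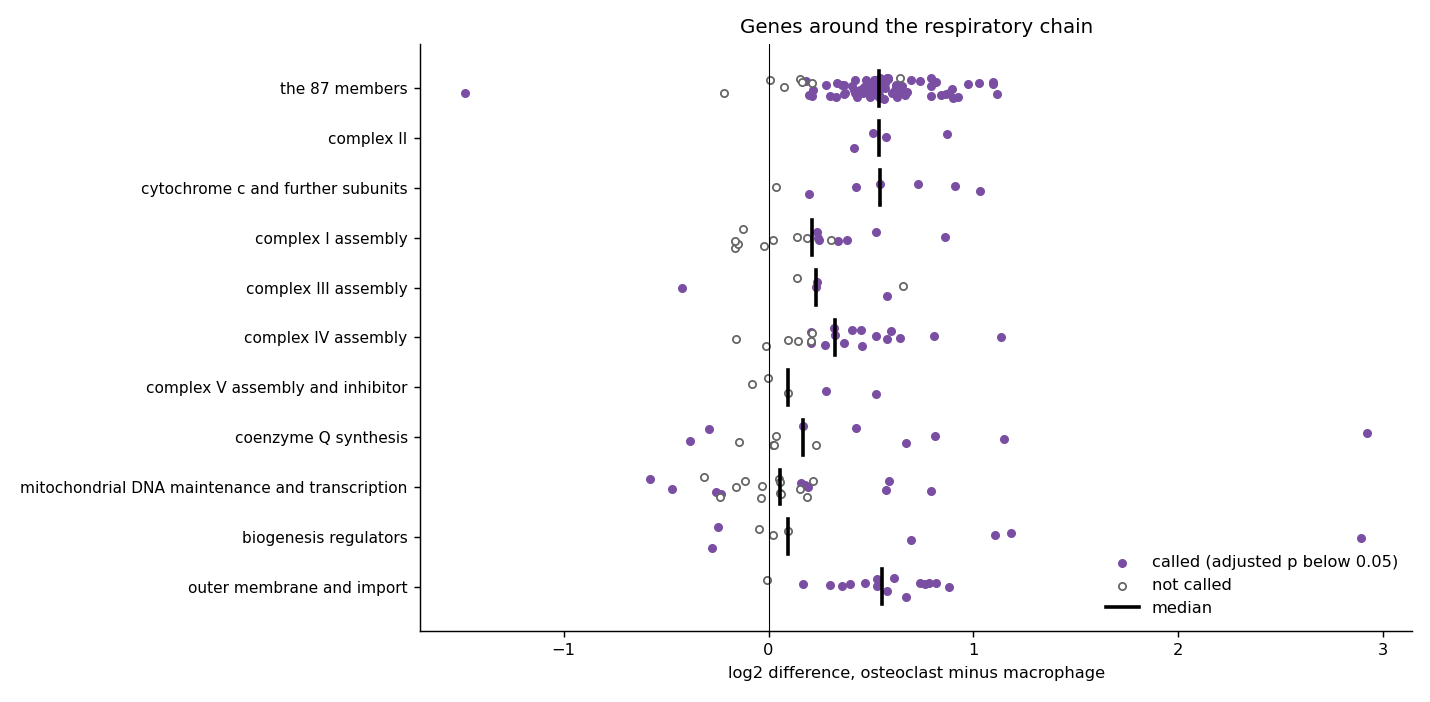
Log2 difference between osteoclasts and macrophages (x axis) of the 87 genes and of 10 lists of related genes (y axis); filled points were called, open points were not, and bars are medians. Complex II, cytochrome c and further genes, and import genes have medians near the 0.54 of the 87 genes. Those of assembly, coenzyme Q, mitochondrial DNA and regulator lists lie between 0.06 and 0.33. Scaled by library totals, the 87 genes have 0.32 and the former lists 0.32 to 0.34, and the latter lie between -0.16 and 0.11. No value shown is corrected for gene length.

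Gene length moved with the result. Over 13178 genes, the log2 difference fell as exon length grew (Spearman rho -0.16, across genes, which are not independent replicates), and the nuclear genes of the chain are short, with a median exon length of 1559.5 bases, against 4188 over all genes. Inside the chain the same correlation was 0.03 over 74 nuclear genes. With the trend removed, complex I stayed lowest, at a median of 0.19, against 0.40 for complex III, 0.34 for complex IV and 0.48 for complex V. Leaving out the 19 genes with a near-identical copy over more than 20% of their length, 62 of 68 rose and 1 fell.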

How the data were processed

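Gene expression was measured by RNA sequencing in 3 osteoclast and 3 macrophage libraries, grouped by the source given in the labels. The authors deposited whole-number counts per gene symbol. STAR 2.6.0c, featureCounts 1.6.2, mm10 and hg19 are named per the submitters' processing notes; how strand and multiple matches were handled is not given in the sources available here. The table is named as normalized, but its totals and low values look like raw counts, so it was analysed as counts; human libraries were not used.

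The main test used edgeR 4.0.16 (R 4.3.3). It filtered with filterByExpr, scaled by TMM and fitted group only, followed by the quasi-likelihood test, two-sided. Benjamini-Hochberg adjustment ran over all genes tested, and an adjusted p below 0.05 made a call. SE is the log2 difference over the square root of F. Alternatives were other scalings, no filter, DESeq2 1.42.0, limma 3.58.1 with a pseudocount of 1, each library left out, and a length correction. Copies and exon lengths came from GENCODE M21 (GRCm38), which matched 86 of the 87 genes.

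Named genes were all mitochondrially encoded genes, the 3 largest rises in each complex, genes lower or not called, isoform pairs, c-ring genes, and the 2 largest rises and falls of each related list; others were named after their values were seen. The members and lists were chosen with earlier results of these data known. Counts limit precision for scarce genes: 3 counts are 0.13 to 0.178 CPM by library, counting error only.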

Additional observations from a re-analysis of the deposited data

How the results depend on the processing

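Scaling moved most values. On the deposited scale (no library scaling), 31 of the 87 genes were called higher; scaled by library totals, 2 were called lower, and 3 with the length trend removed. Medians scaled by library totals, on the deposited scale and with the length trend removed were 0.32, 0.35 and 0.31 for all 87 genes, and 0.24, 0.28 and 0.19 for complex I. They were 0.39, 0.42 and 0.40 for complex III, 0.37, 0.40 and 0.34 for complex IV, 0.40, 0.43 and 0.48 for complex V, and 0.39, 0.42 and 0.32 for mitochondrially encoded genes, which had 0.52 in limma. The cause was not tested beyond the scalings themselves. Leaving out each library in turn gave 77 to 80 higher and 1 lower, with medians of 0.50 to 0.57 over the 87 genes, 0.57 to 0.65 for complex IV and 0.52 to 0.71 for mitochondrially encoded genes. The mitochondrially encoded share differed by 1.73 percentage points as a share of the counts of the 87 genes, and the osteoclast minus macrophage difference in log2 of the ratio of mitochondrially encoded to nuclear member counts was -0.07414 without mt-Co1.

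Of 989 results for 66 named genes, 903 stayed on the same side of the threshold and 16 turned direction, all of them in complex I genes that had not been called. Outside those 66, only the genes of the chain were looked at, and related lists were not. Called genes of the chain below 0 were Ndufa7 (-0.037), Ndufb10 (-0.001), Ndufb7 (-0.004) and Ndufv2 (-0.019) scaled by totals. Ndufa7 (-0.005) was below 0 on the deposited scale, and Ndufa7 (-0.012), Ndufa8 (-0.037) and Ndufb10 (-0.049) were with the length trend removed. Of the 16, those scaled by totals were Ndufa12 (-0.065), Ndufa5 (-0.007), Ndufb11 (-0.055), Ndufb2 (-0.212) and Ndufs8 (-0.141). On the deposited scale they were Ndufa12 (-0.03), Ndufb11 (-0.019), Ndufb2 (-0.175) and Ndufs8 (-0.111). With the length trend removed they were Ndufa12 (-0.075), Ndufa5 (-0.083), Ndufb11 (-0.149) and Ndufs8 (-0.181). Ndufb2 was -0.001 without the filter, and leaving out a library gave -0.094 to 0.11.

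With the replicate block, 79 genes were called higher and 1 lower, and 4237 and 4114 over all genes; Cox7a1 lost its call and Ndufb11 gained one. Deviations of libraries with the same number correlated by 0.035, 0.038 and 0.096, so the numbers were not taken as pairs. Low counts limit the isoforms and the 5 mitochondrial genes with copies.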
